A study of Drosophila melanogaster with 34 samples.

Results

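The genes slam, nullo, bnk, dunk, kuk and halo act in cellularization, the step at which the syncytial Drosophila embryo is divided into cells. They were chosen by name, as the entries with the FlyBase identifiers of these 6 symbols among the 17491 genes counted, and all 6 were among the 9519 genes abundant enough to be tested. During nuclear cycle 14 (NC14) membrane furrows grow inward between the nuclei of the blastoderm, behind an actin and myosin network at each furrow tip, while the nuclei below lengthen. Most proteins of this machinery are supplied by the mother, and a small group of genes transcribed by the embryo itself just before cellularization starts and shapes the furrows. Zelda, encoded by zld, is the pioneer factor that opens chromatin for this first wave of zygotic transcription.

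The study asked at which nuclear cycles Zelda is needed, by sequencing polyadenylated RNA of single embryos picked 30 minutes into NC14. In CRY2-ZLD embryos Zelda is joined to CRY2, a plant photoreceptor that aggregates in blue light, so that 488 nm light switches the fusion off. Both genotypes, CRY2-ZLD; His2AvRFP and the His2AvRFP wild type, carried a red histone marker and were imaged briefly at 587 nm for staging. Light was given during NC10-14, NC10-12, NC13-14 or NC14 to embryos of both genotypes, and another group, of CRY2-ZLD embryos, was kept from it. The NC10-14 groups held 3 embryos each and the other 7 groups 4 each, 34 in all. Wild-type embryos without light were not analysed here, so genotype and fusion without light could only be compared with lit wild type.

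The libraries held 13846445 to 41210334 counts, apart from wild type NC13-14 replicate 4 with 4382299. By the sample numbers in the library names, the NC10-14, NC13-14 and unlit groups form a first set of 18 libraries, in parts of 10 and 8, and the NC10-12 and NC14 groups form a set of 8 each. Light window and library set therefore cannot be told apart where lit NC10-12 or NC14 embryos are set against unlit ones. Earlier work on these data judged 5 libraries to stand apart. They are replicates 3 and 4 of CRY2-ZLD NC10-12 and, in wild type, replicate 4 of the NC13-14 group, replicate 2 of NC10-14 and replicate 3 of NC14. Each value below is in CPM, the reads of a gene relative to its scaled library size, given in replicate order. Differences are log2 changes ± SE from edgeR's quasi-likelihood test, called at a Benjamini-Hochberg adjusted p under 0.05 over all 9519 genes. Each library is a whole embryo, in which fewer transcribing nuclei and less RNA per nucleus cannot be told apart.

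Light throughout NC10-14 went with lower levels of all 6 furrow genes in CRY2-ZLD than in wild type, and their median change was -4.39 against 0.06 over all genes tested. Of all genes tested, 7.58% fell and 7.82% rose in that comparison. All 6 furrow genes had every CRY2-ZLD embryo below wild type, as 15.7% of all genes did, while 14.3% had them all above. With light in NC13-14, 5 of the 6 fell, where 8.94% of all genes fell and 8.32% rose, and the median change was -2.53 against 0.07. The same 5 had all CRY2-ZLD embryos below wild type, as 14.3% of all genes did, with 17.8% all above. Light in NC14 alone left 4 of the 6 lower, where 9.65% of all genes fell and 7.79% rose, and the median change was -1.95 against -0.03. Of those, 3 had all CRY2-ZLD embryos below wild type, as 8.37% of all genes did, with 6.68% all above. When the light was given in NC10-12 and ended before NC13, 1 gene fell and 1 rose, where 16.5% and 16.9% of all genes did, and the median change was 0.09 against -0.01. Groups were separate there for kuk and halo, downwards (15.3% of all genes), and for nullo, upwards (15.5%). The gene that fell there was kuk and the gene that rose was nullo.

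**Figure D1:**
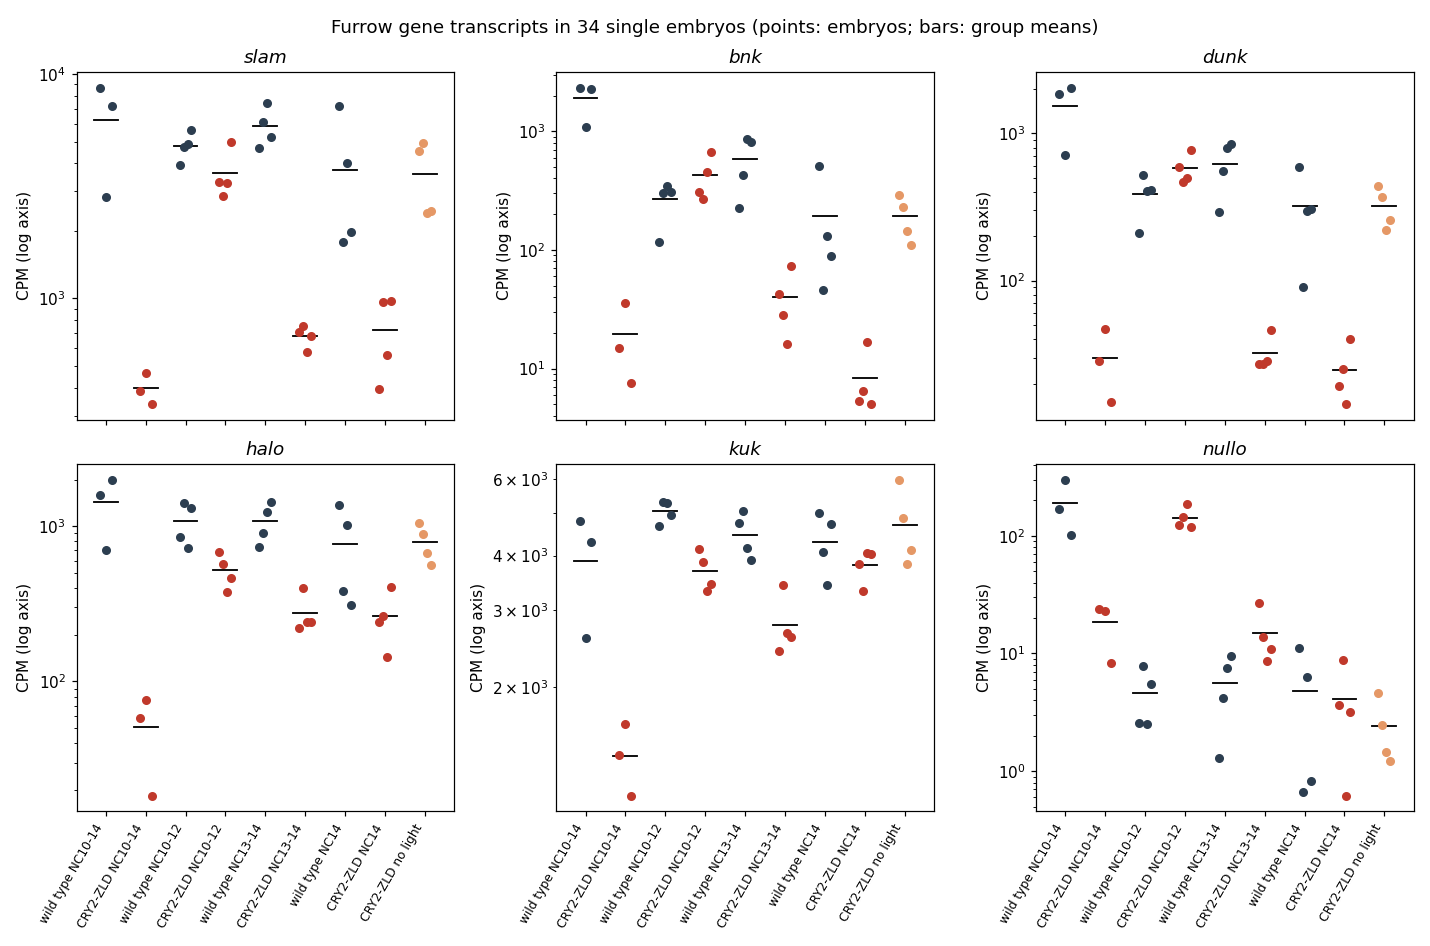
Levels of the 6 furrow genes in 34 single embryos, in CPM on a log axis, by genotype and light window, with each point an embryo and each bar a group mean. For slam, bnk, dunk and halo the CRY2-ZLD embryos lit in NC10-14 or NC13-14 lie below every wild-type embryo of the same window, and nullo is high in wild type NC10-14 and CRY2-ZLD NC10-12.

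Of the furrow proteins, Slam marks the site of the furrow and directs membrane growth there. Its gene (FBgn0043854) lies on chromosome 2L at 6372388 to 6377284 of dm6, plus strand, with 3 exon blocks of 4117 bases in all. With light in NC10-14 slam stood at 8688, 2821 and 7175 CPM in wild type and at 388, 467 and 339.9 CPM in CRY2-ZLD. Every CRY2-ZLD embryo was below the lowest wild-type embryo, replicate 2, which is among those that stand apart. The means were 6228 ± 3046 and 398 ± 64.1 CPM (SD, n = 3 each), and slam fell by 3.97 ± 0.45 (adjusted p = 8.67e-08), with changes of -3.75 and -4.40 within the 2 parts of the library set.

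In the later windows slam was again lower in every CRY2-ZLD embryo. With light in NC13-14 it stood at 4675, 6117, 7387 and 5249.6 CPM in wild type and at 710.4, 757, 580.4 and 678 CPM in CRY2-ZLD, a change of -3.10 ± 0.38 (adjusted p = 2.68e-07). With light in NC14 it stood at 7164, 1793, 4024 and 1972 CPM in wild type and at 397, 968, 559 and 974 CPM in CRY2-ZLD, a change of -2.37 ± 0.37 (adjusted p = 2.02e-05). The groups were separate in both windows, though the 4 wild-type NC14 embryos spread widely among themselves. With light in NC10-12 the wild type held 3931, 4725, 4865 and 5656 CPM and CRY2-ZLD 3303, 2851, 3278 and 4986 CPM. These groups overlapped, through CRY2-ZLD replicate 4, and the difference of -0.41 ± 0.35 did not pass (adjusted p = 0.392).

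Without light, CRY2-ZLD embryos held 4536, 4929, 2407 and 2441 CPM of slam. That range is above all 11 lit CRY2-ZLD embryos of the NC10-14, NC13-14 and NC14 groups and overlaps the NC10-12 group. Against unlit embryos slam changed by -3.17 ± 0.42 at NC10-14 (adjusted p = 9.32e-07), by -2.39 ± 0.37 at NC13-14 (adjusted p = 2.44e-05) and by -2.30 ± 0.36 at NC14 (adjusted p = 8.7e-05). At NC10-12 the difference was 0.01 ± 0.35 (adjusted p = 0.99), and its sign turned with several settings. Set against the average of wild type NC10-14 and NC13-14, unlit embryos differed by -0.76 ± 0.32, which did not pass (adjusted p = 0.0692). It passed without the 5 libraries (-0.94, adjusted p = 0.0299), with wild type NC10-14 replicate 2 alone left out (-0.91, adjusted p = 0.0268), with unlit replicate 2 left out (-0.95, adjusted p = 0.0457) and with DESeq2 (adjusted p = 0.0434). Within the 2 parts of the library set it was -0.24 (adjusted p = 0.792) and -1.47 (adjusted p = 0.0375).

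The gene bnk (bottleneck, FBgn0004389) encodes a small protein that restrains contraction of the actin and myosin network until the furrows have passed the nuclei. It is a single exon of 1028 bases on chromosome 3R at 31193362 to 31194389, plus strand, inside a gene on the other strand, mesh. They share no exon bases, and mesh had group means of 0 to 14.8 CPM, far below wild-type bnk. With light in NC10-14 bnk stood at 2329, 1092 and 2288 CPM in wild type and at 14.8, 35.7 and 7.63 CPM in CRY2-ZLD. Of the 6 furrow genes this was the largest fitted fall, at -6.62 ± 0.86 (adjusted p = 9.02e-07), and it was -6.08 and -8.23 within the 2 parts of the library set.

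Light in NC13-14 gave 228, 426, 868 and 809.7 CPM of bnk in wild type and 42.3, 28.3, 16 and 73.2 CPM in CRY2-ZLD, a change of -3.87 ± 0.65 (adjusted p = 4.83e-05). With light in NC14 the wild type held 513, 46.4, 131 and 89.0 CPM and CRY2-ZLD 5.36, 6.46, 16.6 and 5.06 CPM, a change of -4.54 ± 0.68 (adjusted p = 1.25e-05). All CRY2-ZLD embryos were below all wild-type ones in both windows, and wild type NC14 replicate 1 was far above its group. Without that embryo the NC14 change was -3.40 (adjusted p = 8.81e-05). With light in NC10-12 bnk stood at 116, 301, 349 and 305 CPM in wild type and at 307, 268, 454 and 668 CPM in CRY2-ZLD. The groups overlapped and the difference of 0.66 ± 0.58 did not pass (adjusted p = 0.413).

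Unlit CRY2-ZLD embryos held 288, 232, 146 and 111 CPM of bnk, above every CRY2-ZLD embryo lit in NC10-14, NC13-14 or NC14. Against them bnk changed by -3.33 ± 0.72 at NC10-14 (adjusted p = 0.000443), by -2.28 ± 0.61 at NC13-14 (adjusted p = 0.0111) and by -4.53 ± 0.68 at NC14 (adjusted p = 3.72e-05). The NC13-14 change was -2.88 and -1.53 within the 2 parts and passed in neither (adjusted p = 0.0698 and 0.285). Against the average of wild type NC10-14 and NC13-14, unlit bnk changed by -2.44 ± 0.58 (adjusted p = 0.00203). It was -3.29 against wild type NC10-14 alone (adjusted p = 0.000248) and -1.59 against wild type NC13-14 alone, which did not pass (adjusted p = 0.0986). The change from the average was -1.52 and -3.43 within the 2 parts (adjusted p = 0.205 and 0.00783).

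The gene dunk (FBgn0083973) is needed to hold myosin at the cortex as cellularization begins. It lies on chromosome 2L at 22151623 to 22152640, plus strand, with 2 exon blocks of 892 bases, inside CG42748, which runs on the same strand and shares no exon bases with it. In wild type NC10-14 dunk stood at 1845, 716 and 2046 CPM, and in CRY2-ZLD NC10-14 at 28.4, 46.6 and 15 CPM. The host gene CG42748 averaged 109 CPM in this wild type and 113 CPM in these CRY2-ZLD embryos, and its part in the low dunk counts was not tested. The groups were far apart and dunk fell by 5.68 ± 0.60 (adjusted p = 2.15e-08), with changes of -5.09 and -7.09 within the 2 parts of the library set.

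With light in NC13-14 dunk stood at 291, 559, 802 and 842 CPM in wild type and at 27.2, 27.3, 28.3 and 46.1 CPM in CRY2-ZLD, a change of -4.27 ± 0.48 (adjusted p = 7.95e-08). With light in NC14 the values were 592, 90.9, 299 and 305 CPM in wild type and 19.2, 25.3, 14.6 and 40.2 CPM in CRY2-ZLD, a change of -3.70 ± 0.47 (adjusted p = 1.11e-06). No CRY2-ZLD embryo reached the lowest wild-type embryo in either window. With light in NC10-12 the order of the means was the other way round, with 211, 524, 405 and 412 CPM in wild type and 596, 469, 501 and 773 CPM in CRY2-ZLD. The groups overlapped, and 0.59 ± 0.42 did not pass (adjusted p = 0.301).

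Unlit CRY2-ZLD embryos held 439.7, 368, 220.1 and 258 CPM of dunk, above every CRY2-ZLD embryo lit in NC10-14, NC13-14 or NC14. Against them dunk changed by -3.42 ± 0.52 at NC10-14 (adjusted p = 5.7e-06), by -3.32 ± 0.46 at NC13-14 (adjusted p = 6.21e-06) and by -3.70 ± 0.47 at NC14 (adjusted p = 3.41e-06), changes of like size in the 3 windows. Compared with the same average of wild types, unlit dunk fell by 1.61 ± 0.40 (adjusted p = 0.00315). It was -2.26 against wild type NC10-14 alone (adjusted p = 0.000328) and -0.96 against wild type NC13-14 alone, which did not pass (adjusted p = 0.18). Within the parts of the library set the change from the average was -0.87 (adjusted p = 0.292) and -2.44 (adjusted p = 0.0051).

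Halo directs the motors that move lipid droplets, whose transport changes around cellularization. The gene (FBgn0001174) is a single exon of 616 bases on chromosome 2L at 1517533 to 1518148, minus strand, 55 bases from CG18132. With light in NC10-14 halo stood at 1593, 701 and 2001 CPM in wild type and at 58.1, 76.1 and 18.4 CPM in CRY2-ZLD. The groups did not overlap, and halo fell by 4.82 ± 0.56 (adjusted p = 1.13e-07), with changes of -4.10 and -6.77 within the 2 parts of the library set.

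The later windows left more halo than light throughout. With light in NC13-14 it stood at 736, 907, 1238 and 1425 CPM in wild type and at 221, 398, 241 and 243 CPM in CRY2-ZLD, a change of -1.96 ± 0.43 (adjusted p = 0.00107), which did not pass within the first part of the library set (-1.41, adjusted p = 0.114). With light in NC14 the values were 1365, 384, 1026 and 310.3 CPM in wild type and 243, 263, 144 and 408 CPM in CRY2-ZLD. These groups overlapped, since CRY2-ZLD replicate 4 was above wild-type replicates 2 and 4. The change of -1.54 ± 0.42 passed (adjusted p = 0.0101), but not without wild type NC14 replicate 1 (-1.12, adjusted p = 0.0597), with scaling on ribosomal protein genes (-1.03, adjusted p = 0.0898) or in a fit of these 8 libraries alone (-1.51, adjusted p = 0.0501). Nor did it pass with a block for replicate number in the fit (-1.38, adjusted p = 0.0652).

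With light in NC10-12 halo stood at 854, 1422, 725 and 1304 CPM in wild type and at 686, 575, 375 and 464 CPM in CRY2-ZLD. Every CRY2-ZLD embryo was below every wild-type one, and such a separation held for 15.3% of all genes. The difference of -1.04 ± 0.41 did not pass (adjusted p = 0.0534), whereas DESeq2 (adjusted p = 0.0369), limma-voom (adjusted p = 0.0402) and a fit of these libraries alone (adjusted p = 0.0148) called it. It was also called without CRY2-ZLD replicate 1 (-1.19, adjusted p = 0.0436) or wild-type replicate 3 (-1.18, adjusted p = 0.0389). Unlit embryos held 1052, 887, 669.6 and 565 CPM of halo and did not differ from lit wild type past the threshold (-0.65 ± 0.37, adjusted p = 0.194), with -0.0017 and -1.40 within the 2 parts of the library set (adjusted p = 1 and 0.0597).

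Against unlit embryos halo changed by -3.96 ± 0.52 at NC10-14 (adjusted p = 7.37e-07), by -1.52 ± 0.42 at NC13-14 (adjusted p = 0.0138) and by -1.58 ± 0.42 at NC14 (adjusted p = 0.0248). The NC13-14 call was lost without CRY2-ZLD NC13-14 replicate 1 (-1.43, adjusted p = 0.0544) and within either part of the library set (adjusted p = 0.114 and 0.119). The NC14 call was lost without any of CRY2-ZLD NC14 replicates 1 (adjusted p = 0.0766), 2 (adjusted p = 0.0612) and 3 (adjusted p = 0.122) or unlit replicates 1 (adjusted p = 0.0871) and 2 (adjusted p = 0.058), and with ribosomal protein scaling (-1.54, adjusted p = 0.0555). It was also lost with a block for replicate number in the fit (-1.52, adjusted p = 0.0825).

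Kugelkern, encoded by kuk, is a protein of the nuclear envelope that makes blastoderm nuclei elongate while the furrows pass them. Its gene (FBgn0038476) lies on chromosome 3R at 17080244 to 17084781, plus strand, with 4 exon blocks of 2433 bases. It varied least over the groups, with a highest group mean 3.64 times the lowest, against 227 times for bnk. With light in NC10-14 kuk stood at 4810.1, 2584 and 4289.8 CPM in wild type and at 1399, 1644 and 1128 CPM in CRY2-ZLD. The groups were separate, and kuk fell by 1.49 ± 0.20 (adjusted p = 1.26e-06), with changes of -1.28 and -1.93 within the 2 parts of the library set.

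In the shorter windows the kuk differences were small. With light in NC13-14 it stood at 4755, 5049.9, 4174 and 3900.0 CPM in wild type and at 2417, 3434, 2661 and 2599.7 CPM in CRY2-ZLD, a change of -0.69 ± 0.17 (adjusted p = 0.00352). That call was lost with ribosomal protein scaling (-0.48, adjusted p = 0.241) and within the second part of the library set (-0.62, adjusted p = 0.0867). With light in NC10-12 it stood at 4686, 5315, 5288 and 4967 CPM in wild type and at 4132, 3867, 3326 and 3446 CPM in CRY2-ZLD. The groups did not overlap in either window, and the NC10-12 change of -0.46 ± 0.17 passed (adjusted p = 0.0347). It did not pass with ribosomal protein scaling (-0.23, adjusted p = 0.56) or without the 5 libraries (-0.36, adjusted p = 0.123). Nor did it pass with CRY2-ZLD replicate 3 (adjusted p = 0.1) or 4 (adjusted p = 0.0859), or wild-type replicate 2 (adjusted p = 0.0742), 3 (adjusted p = 0.0678) or 4 (adjusted p = 0.0544), left out.

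Light in NC14 gave 5010.1, 4069.7, 3422 and 4729 CPM of kuk in wild type and 3834, 3316, 4063 and 4034 CPM in CRY2-ZLD. The groups overlapped, and -0.18 ± 0.17 did not pass (adjusted p = 0.519) and turned to 0.23 with ribosomal protein scaling. Unlit embryos held 5977, 4888, 3836 and 4123 CPM and did not differ from lit wild type past the threshold (0.17 ± 0.15, adjusted p = 0.397). Against unlit embryos kuk changed by -1.76 ± 0.19 at NC10-14 (adjusted p = 3.91e-08) and by -0.76 ± 0.17 at NC13-14 (adjusted p = 0.00218). The second call was lost with ribosomal protein scaling (-0.69, adjusted p = 0.12) and within the second part of the library set (-0.60, adjusted p = 0.0913). At NC14 the change was -0.30 ± 0.17 (adjusted p = 0.427).

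**Figure D2:**
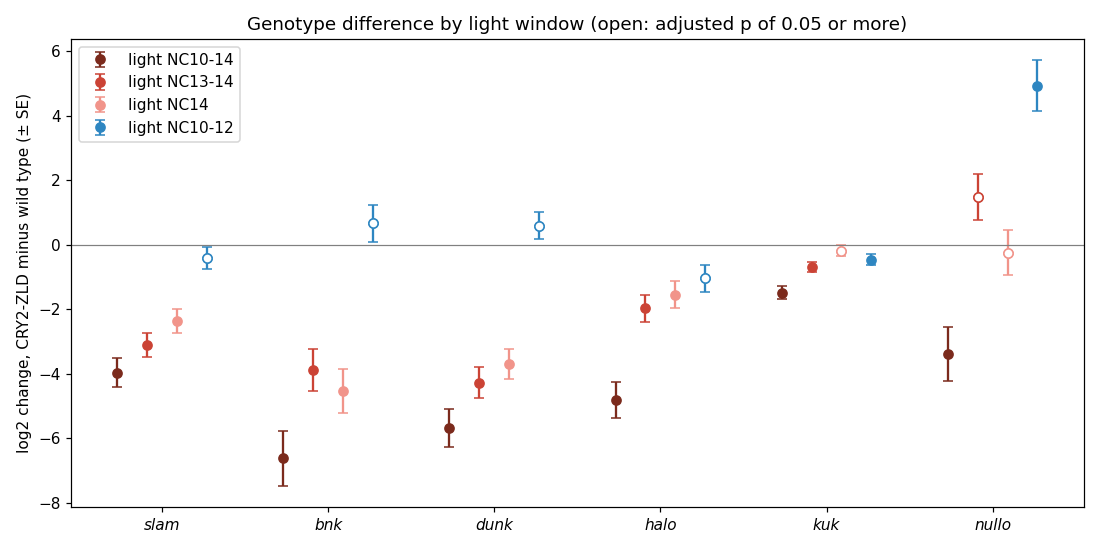
Log2 change of each furrow gene, CRY2-ZLD minus wild type, by light window, with bars of 1 SE and open points where the adjusted p was 0.05 or more. The NC10-14 points lie between -6.62 for bnk and -1.49 for kuk, while at NC10-12 the values run from -1.04 for halo to 4.94 for nullo.

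Nullo, the gene product that stabilises the early furrow and its actin lining, followed another pattern across the groups. The gene (FBgn0004143) is a single exon of 846 bases on the X chromosome at 7049476 to 7050321, plus strand, inside CG12541 on the other strand, whose group means were 0.774 to 4.89 CPM. Among wild-type embryos nullo was abundant only in the NC10-14 group, at 168, 301 and 102 CPM. It stood at 2.58, 7.89, 2.50 and 5.54 CPM in wild type NC10-12, at 1.30, 4.15, 7.48 and 9.50 CPM in wild type NC13-14 and at 11.2, 0.671, 6.35 and 0.830 CPM in wild type NC14. The lowest NC10-14 embryo was thus above every other wild-type embryo, although all were picked at the same labelled time of NC14.

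CRY2-ZLD embryos held 23.7, 23.1 and 8.36 CPM of nullo with light in NC10-14, all below the wild type of that window. The change was -3.37 ± 0.84 (adjusted p = 0.00506), and -3.33 and -3.60 were the changes within the 2 parts, the latter not past the threshold (adjusted p = 0.113). With light in NC10-12 nullo stood at 124, 143, 185 and 118 CPM in CRY2-ZLD, all above the wild type, and rose by 4.94 ± 0.79 (adjusted p = 2.04e-05). It rose by 4.83 without the 5 libraries (adjusted p = 0.000331). Such a separation upwards held for 15.5% of all genes in that window.

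In the 2 remaining windows nullo did not pass. CRY2-ZLD embryos held 26.7, 13.9, 8.59 and 10.9 CPM with light in NC13-14, of which replicate 3 overlapped the wild type (1.48 ± 0.71, adjusted p = 0.159). They held 3.66, 8.81, 0.620 and 3.19 CPM with light in NC14, of which 0.620 lay just below the lowest wild-type embryo and the rest within the wild-type range (-0.24 ± 0.69, adjusted p = 0.86), and that sign turned with ribosomal protein scaling (0.31), limma-voom (0.18) and with wild type NC14 replicate 1 (0.69) or CRY2-ZLD NC14 replicate 3 (0.13) left out. At 0.620 CPM an embryo held 14 reads of nullo, so these low values are less precise than those of the other furrow genes.

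Unlit CRY2-ZLD embryos held 4.61, 2.44, 1.45 and 1.21 CPM of nullo, the lowest group mean of all. Lit embryos were therefore higher than unlit ones, by 2.90 ± 0.76 at NC10-14 (adjusted p = 0.00288), 5.86 ± 0.83 at NC10-12 (adjusted p = 1.31e-05) and 2.61 ± 0.73 at NC13-14 (adjusted p = 0.0146). The NC10-14 rise did not pass within the second part of the library set (2.64, adjusted p = 0.0738). The NC13-14 rise was lost without CRY2-ZLD NC13-14 replicate 1 (2.18, adjusted p = 0.0678) or unlit replicates 3 (2.42, adjusted p = 0.0616) or 4 (2.39, adjusted p = 0.0566), and in both parts (adjusted p = 0.212 and 0.08). At NC14 the difference of 0.72 ± 0.71 did not pass (adjusted p = 0.72). Against the average of wild type NC10-14 and NC13-14, unlit nullo fell by 3.70 ± 0.73 (adjusted p = 0.000349). The change was -6.28 against wild type NC10-14 alone (adjusted p = 2.56e-06) and -1.13 against wild type NC13-14 alone, whose embryos overlapped the unlit ones and which did not pass (adjusted p = 0.382). Within the parts the change from the average was -2.84 (adjusted p = 0.054) and -4.44 (adjusted p = 0.00548).

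Counted over the furrow genes, lit against unlit CRY2-ZLD had 5 lower and 1 higher at NC10-14, where 17.1% of all genes fell and 20.3% rose. The groups were separate for the same 6, as for 21.2% of all genes downwards and 22.9% upwards. At NC13-14 the counts were again 5 and 1, where 6.41% of all genes fell and 6.67% rose and 13.5% and 12.7% were separate downwards and upwards. Within the 2 parts of the library set 3 and 2 fell and none rose. At NC14 4 fell, where 2.57% of all genes did and 1.12% rose, and these 4 were separate downwards, as were 7.03% of all genes, with 3.54% upwards. At NC10-12 nullo was the 1 gene that rose, where 13.8% of all genes did and 14.4% fell. Nullo and dunk were separate upwards, as were 13% of all genes, with 15.9% downwards. None was called lower by edgeR, DESeq2 or limma-voom. At an unadjusted p under 0.05 there were 2 of the 6, nullo and, in the lower direction, kuk. Unlit embryos had 3 furrow genes lower than the average of wild type NC10-14 and NC13-14, nullo, bnk and dunk, where 15% of all genes fell and 16.6% rose. The count was 3 against wild type NC10-14 alone and 0 against wild type NC13-14 alone, references set apart after the data were seen. No furrow gene had unlit embryos entirely below or above the wild types, as 7.89% and 9.22% of all genes did. These comparisons share the unlit or the lit CRY2-ZLD embryos with each other and with the genotype comparisons.

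**Figure D3:**
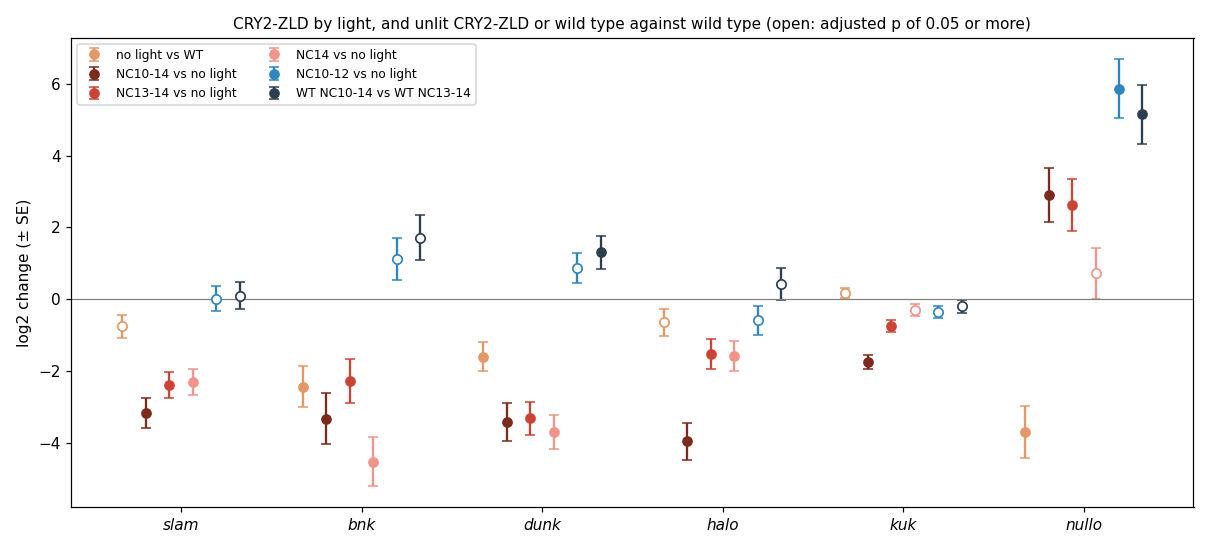
Log2 change of each furrow gene in CRY2-ZLD embryos lit in 4 windows against unlit ones, in unlit CRY2-ZLD against lit wild type, and in wild type NC10-14 against wild type NC13-14, with bars of 1 SE and open points where the adjusted p was 0.05 or more. The lit changes of slam, bnk, dunk and halo in NC10-14, NC13-14 and NC14 are negative and those of nullo positive, up to 5.86 at NC10-12.

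Wild-type embryos of different windows carried no light-sensitive Zelda and still differed in some furrow genes. Between wild type NC10-14 and NC13-14 nullo was higher by 5.15 ± 0.82 in NC10-14 (adjusted p = 0.000121) and dunk by 1.30 ± 0.45 (adjusted p = 0.0426), where 10.5% of all genes were called higher and 7.99% lower. The dunk call was lost with wild type NC10-14 replicate 1 (adjusted p = 0.132) or 4 (adjusted p = 0.201), or wild type NC13-14 replicate 1 (adjusted p = 0.142), 2 (adjusted p = 0.091) or 3 (adjusted p = 0.0505), left out. All 3 wild-type NC10-14 embryos exceeded all 4 NC13-14 embryos in bnk, yet 1.71 ± 0.63 did not pass (adjusted p = 0.0547), while DESeq2 (adjusted p = 0.0327) and limma-voom (adjusted p = 0.00682) called it. The slam (0.09), halo (0.41) and kuk (-0.20) changes did not pass. Nullo and bnk were the 2 furrow genes separated this way, as were 21.1% of all genes, with 17.3% separated downwards. Within the parts the nullo change was 6.43 and 3.60, of which the second did not pass (adjusted p = 0.000895 and 0.301).

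Whether the genotype difference itself changed with the window was tested directly. From NC10-12 to NC10-14 the genotype difference moved downward for all 6 furrow genes, as for 4.84% of all genes, while 3.92% moved upward. Its change was -8.31 ± 1.17 for nullo (adjusted p = 1.76e-05), -7.28 ± 1.0 for bnk (adjusted p = 1.07e-05) and -6.27 ± 0.70 for dunk (adjusted p = 4.03e-07). Wild-type means of these 3 were higher in NC10-14, going from 4.63 to 190 CPM for nullo, 268 to 1903 for bnk and 388 to 1536 for dunk. CRY2-ZLD means were lower there, going from 142 to 18.4, 424 to 19.4 and 585 to 30.0 CPM. The other 3 were halo at -3.78 ± 0.65 (adjusted p = 0.000319), slam at -3.56 ± 0.55 (adjusted p = 7.17e-05) and kuk at -1.03 ± 0.26 (adjusted p = 0.0104). The kuk value was not called with ribosomal protein scaling (adjusted p = 0.2) or without CRY2-ZLD NC10-14 replicate 4 (adjusted p = 0.075), wild type NC10-14 replicate 1 (adjusted p = 0.0656) or replicate 4 (adjusted p = 0.0592). These 2 windows belong to different library sets, as does each pair below that includes NC10-12 or NC14.

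The difference at NC10-12 exceeded that at NC14 for 4 of the 6, where 2.98% of all genes did and 1.87% showed the reverse: bnk by 5.20 ± 0.88 (adjusted p = 0.00116), nullo by 5.18 ± 1.02 (adjusted p = 0.00414), dunk by 4.29 ± 0.62 (adjusted p = 0.000264) and slam by 1.96 ± 0.50 (adjusted p = 0.0218). The slam value fell short without the 5 libraries (1.66, adjusted p = 0.147), with ribosomal protein scaling (1.68, adjusted p = 0.104), in a fit of these libraries alone (1.89, adjusted p = 0.0587) and without any of CRY2-ZLD NC10-12 replicate 4 (adjusted p = 0.0575), CRY2-ZLD NC14 replicate 1 (adjusted p = 0.0597), wild type NC10-12 replicate 1 (adjusted p = 0.056) or wild type NC14 replicate 1 (1.43, adjusted p = 0.0741). The bnk value without wild type NC14 replicate 1 was 4.06 (adjusted p = 0.00358). For kuk (-0.28 ± 0.24) and halo (0.51 ± 0.58) no change between these windows was called.

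Both NC13-14 and NC10-14 are in the first library set. From the former to the latter the genotype difference changed by -4.85 ± 1.09 for nullo (adjusted p = 0.0201). For halo it changed by -2.85 ± 0.64 (adjusted p = 0.0202). Of all genes, 0.462% were called in that direction and 0.536% in the other. The halo difference deepened, from -1.96 to -4.82. The nullo difference turned sign, from 1.48, which did not pass, to -3.37. Nullo spanned 8.59 to 26.7 CPM in CRY2-ZLD NC13-14 and 8.36 to 23.7 CPM in CRY2-ZLD NC10-14. In wild type it spanned 1.30 to 9.50 CPM and 102 to 301 CPM in these windows. The nullo call was lost without CRY2-ZLD NC10-14 replicate 4 (-4.43, adjusted p = 0.114), wild type NC10-14 replicate 2 (-4.29, adjusted p = 0.0656) or wild type NC13-14 replicate 1 (-4.50, adjusted p = 0.0509). The halo call was lost without CRY2-ZLD NC10-14 replicate 4 (-2.37, adjusted p = 0.114), wild type NC10-14 replicates 1 (-2.74, adjusted p = 0.0507) or 4 (-2.45, adjusted p = 0.0817), or wild type NC13-14 replicate 1 (-2.71, adjusted p = 0.057). Within the 2 parts of the library set nullo was at -6.22 (adjusted p = 0.0423) and -3.82 (adjusted p = 0.324) and halo at -2.69 (adjusted p = 0.213) and -4.30 (adjusted p = 0.0189), and halo was not called with ribosomal protein scaling (adjusted p = 0.0604). For slam, bnk, kuk and dunk the change was -0.86, -2.75, -0.80 and -1.41 and did not pass. Between NC14 and NC13-14 no furrow gene was called, where 0.116% and 0.0525% of all genes were called lower and higher, by edgeR, DESeq2 or limma-voom (adjusted p of 0.603 to 0.901 in edgeR), and 1 of the 6, kuk, had an unadjusted p under 0.05 (0.0389).

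Compared per kilobase of exon (RPKM), the furrow genes ranked differently by window in wild type. In wild type NC10-14 halo had the highest level at 2324 ± 1079.8 RPKM, followed by bnk at 1852 ± 684, dunk at 1722 ± 804, kuk at 1601 ± 479 and slam at 1513 ± 739.9 (SD, n = 3). The embryos of these 5 genes overlapped in level, and nullo was lower at 225 ± 119.7 RPKM. In wild type NC14 kuk led at 1770.5 ± 292 RPKM, ahead of halo at 1252 ± 827, slam at 908 ± 607, dunk at 361 ± 231, bnk at 189.5 ± 209 and nullo at 5.62 ± 5.94 (SD, n = 4). The highest wild-type group mean was 1.30 times the lowest for kuk, 1.67 for slam and 1.86 for halo, but 4.77 for dunk, 9.77 for bnk and 41.1 for nullo.

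Ordered by group mean, the furrow genes formed few steps that the spread between embryos left clear. For slam, unlit CRY2-ZLD was above CRY2-ZLD NC14 with no overlap, and CRY2-ZLD NC13-14 was above CRY2-ZLD NC10-14, whereas the other 6 of 8 neighbours in the order overlapped. For bnk the separate neighbours were wild type NC10-14 above wild type NC13-14 and unlit CRY2-ZLD above CRY2-ZLD NC13-14. Nullo had 1 such step, CRY2-ZLD NC10-12 above CRY2-ZLD NC10-14. Dunk had 1 step, unlit CRY2-ZLD above CRY2-ZLD NC13-14, and kuk and halo had 1 each, above CRY2-ZLD NC10-14.

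Over the 34 libraries the furrow genes other than nullo rose and fell together. As a description, Pearson's r of log2(CPM + 1) was 0.96 between bnk and dunk, 0.94 between slam and dunk, 0.89 between slam and halo and 0.84 between kuk and halo. The lowest r without nullo was 0.49, between bnk and kuk. Nullo had r of 0.15 with slam, 0.43 with bnk and -0.27 with kuk. The points share libraries and the 9 groups, and with group means subtracted r was 0.75 for bnk with dunk, 0.76 for slam with dunk and 0.61 for nullo with halo, while nullo with kuk stayed at -0.10.

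**Figure D4:**
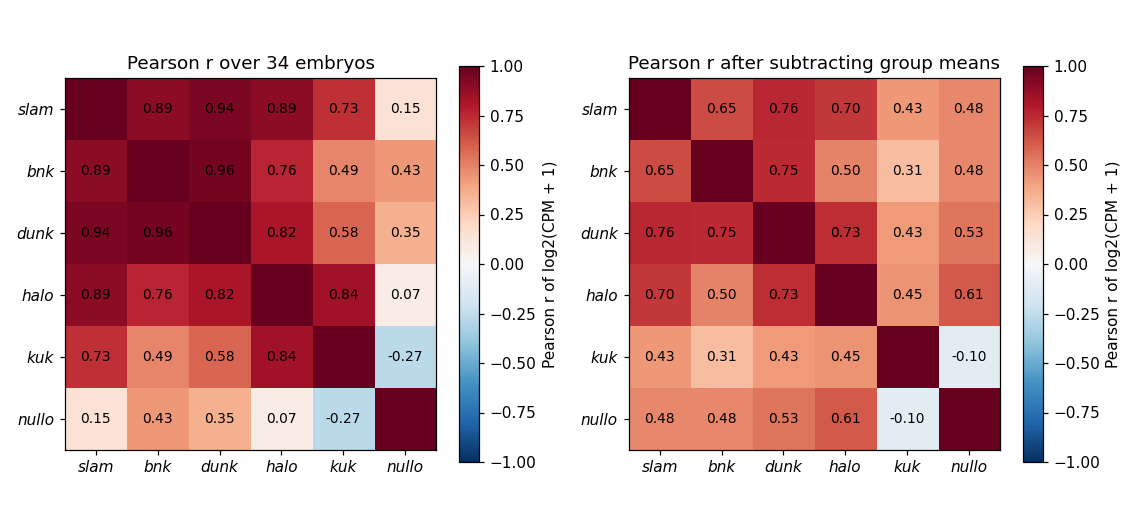
Pearson r between the furrow genes on the log2(CPM + 1) scale over 34 embryos, at left as measured and at right with each group's mean subtracted. At left nullo stands out with values from -0.27 to 0.43, and at right its values with slam, bnk, dunk and halo are 0.48 to 0.61.

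Outside the 6, and over the same 34 libraries, the genes most like each furrow gene were sought among 5876 tested genes that reached a group mean of 10 CPM. The unnamed gene CG15876 came first for both slam (r = 0.95) and dunk (r = 0.97) and second for bnk (r = 0.92), and upd1, a JAK/STAT ligand, was the other for slam and dunk (both r = 0.95). Elba2, a subunit of an insulator-binding complex of the early embryo, was closest to bnk (r = 0.93). The closest genes to kuk were BNIP3 and Ptr (both r = 0.94) and those to halo CG7271 (r = 0.94) and bard (r = 0.93). Nullo had weaker matches, with Unc50 and CycD, a cyclin, both at r = 0.85.

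Maternal RNAs that are cleared around NC14 moved with some of these values. The 8 listed, smg, twe, bcd, png, plu, gnu, mtrm and wisp, summed to 1795 to 2858 CPM in wild type NC10-14 and to 2562 to 6024 CPM in CRY2-ZLD NC10-14. The sums were 171 to 316 CPM in wild type NC10-12, 301 to 2721 in CRY2-ZLD NC10-12, 352 to 753 in wild type NC13-14 and 311 to 622 in CRY2-ZLD NC13-14. They were 169 to 331 in wild type NC14, 187 to 257 in CRY2-ZLD NC14 and 141 to 299 CPM in unlit CRY2-ZLD, and bcd was at 0 in at least 1 embryo of each NC14 group. Between wild type NC10-14 and NC13-14, where nullo and dunk were higher, 5 of the 8 maternal RNAs were called higher too. Of all genes, 10.5% were called higher there.

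Among single embryos, nullo and the maternal sum did not always go together. CRY2-ZLD NC10-12 replicates 1 and 2 held 124 and 143 CPM of nullo at maternal sums of 301 and 321 CPM, and replicates 3 and 4 held 185 and 118 CPM at 2721 and 1739 CPM. The 3 CRY2-ZLD NC10-14 embryos held 8.36 to 23.7 CPM of nullo at sums of 2562 to 6024 CPM. At NC10-12, where nullo rose, 4 of the 8 maternal RNAs were called higher and 1 lower. Of all genes, 16.9% were called higher there and 16.5% lower. Lit against unlit CRY2-ZLD, 7 of the 8 were higher with light in NC10-14, where 20.3% of all genes were. With NC10-12 light 4 were higher, where 13.8% of all genes were. With NC13-14 light 2 were higher, where 6.67% of all genes were, and with NC14 light 0, where 1.12% were. In unlit CRY2-ZLD 5 of the 8 were lower than in lit wild type, where 15% of all genes were. Among the 8, plu averaged 3.81 to 21.2 CPM over the CRY2-ZLD groups, unlit included, and 25.4 to 51.2 CPM over the wild-type groups. Over all 34 libraries r with the maternal sum was 0.68 for nullo and -0.65 for kuk, a description without a test, and the part of maternal RNA in the nullo and kuk values was not tested.

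**Figure D5:**
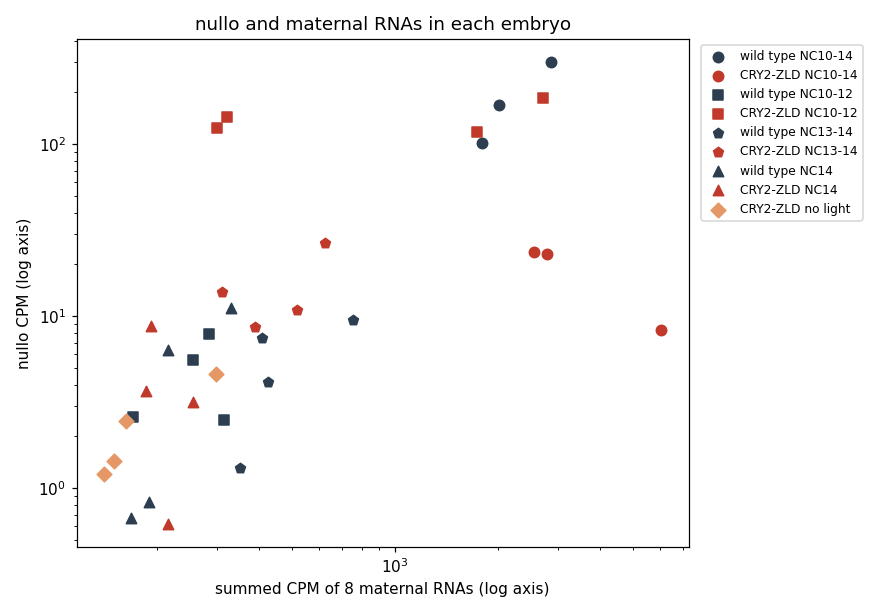
CPM of nullo against the summed CPM of 8 maternal RNAs in each of 34 embryos, both on log axes, with colour for genotype and light and shape for the light window. The 3 wild-type NC10-14 embryos and the 4 CRY2-ZLD NC10-12 embryos hold over 100 CPM of nullo, at sums that range from 301 to 2858 CPM.

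Markers of other cells and stages were followed beside the furrow genes. The 8 follicle cell genes summed to at most 2.50 CPM, and 1 of them was abundant enough to be tested. The 6 genes of differentiated tissues of later embryos summed to 5.48 to 16.1 CPM in wild type NC10-14, 68.7 to 87.1 CPM in wild type NC13-14, 5.22 to 41.0 CPM in CRY2-ZLD NC10-14 and 87.9 to 164 CPM in unlit CRY2-ZLD. They summed to 48.6 to 281 CPM in CRY2-ZLD NC13-14, 38.6 to 133 CPM in wild type NC10-12 and 25.2 to 68.2 CPM in CRY2-ZLD NC10-12. With light in NC14 the sums were 74.6 to 117 CPM in wild type and 149 to 269 CPM in CRY2-ZLD, which did not overlap. In CRY2-ZLD against wild type 1 of the 5 tested was called lower at NC13-14, where 8.94% of all genes were. At NC14 0 were called, where 9.65% of all genes fell and 7.79% rose. Of the 5 tested, 3 fell and 1 rose with light in NC10-14 relative to unlit CRY2-ZLD, and 3 were higher in unlit CRY2-ZLD than in lit wild type. Of all genes, 17.1% fell and 20.3% rose in the first comparison and 16.6% were higher in the second. The 6 pole cell genes summed to 108 to 780.5 CPM, highest in a CRY2-ZLD NC10-14 embryo, and 3 of them rose with NC10-14 light relative to unlit CRY2-ZLD. In that comparison 20.3% of all genes rose. The part of these RNAs in the furrow gene values was not tested.

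The blastoderm genes His2Av, zld, sna, twi and eve had reads in all 34 embryos, from 1.90 CPM upwards for eve, 2.15 for sna and 13.5 for twi, the 3 patterning genes. Like the furrow genes, these 3 fell in CRY2-ZLD at NC10-14, with changes of -4.59 for eve, -4.75 for sna and -1.94 for twi, and at NC13-14, with -3.46, -3.17 and -1.91. His2Av, the histone gene, and zld were not called in either window. Of all genes, 7.58% fell at NC10-14 and 8.94% at NC13-14. Of the 5 blastoderm genes, 1 fell and 0 rose at NC14, where 9.65% of all genes fell and 7.79% rose. At NC10-12 1 fell and 1 rose, where 16.5% of all genes fell and 16.9% rose.

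The furrow genes also have partners, which were described by lists and not tested as sets. Of 5 further zygotic genes, Sry-alpha had 0 reads in every library, and 4 were tested. Whether Sry-alpha RNA was absent or its reads went uncounted cannot be told from the counts. Of those 4, 3 fell at NC10-14 (list median -3.20), 1 at NC10-12 (-0.30), 3 at NC13-14 (-1.67) and 2 at NC14 (-1.0), where 1 rose. Of all genes, 7.58%, 16.5%, 8.94% and 9.65% fell in these windows, and 7.79% rose at NC14. Nrt, a membrane adhesion protein, changed by -3.77, -1.41, -3.14 and -2.41 in NC10-14, NC10-12, NC13-14 and NC14. It differed by -0.01 without light. The mitotic brake trbl changed by -3.07 at NC10-14 and -1.62 at NC13-14 and gave -0.25 and -0.71 at NC10-12 and NC14, which did not pass.

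Of 24 actin, myosin and septin genes of the furrow, mostly of maternal supply, 3 fell and 1 rose at NC10-14, 2 and 7 at NC10-12, 2 and 1 at NC13-14 and 1 and 2 at NC14. Of all genes, 7.58% fell and 7.82% rose at NC10-14, and 16.5% and 16.9% at NC10-12. The shares were 8.94% and 8.32% at NC13-14 and 9.65% and 7.79% at NC14. The list medians were between -0.08 and 0.15, near those of all genes. Septin5 changed by -3.19, -1.95, -2.62 and -1.77 in NC10-14, NC10-12, NC13-14 and NC14. The filamin gene cher, which cross-links actin, rose by 3.88, 3.75, 2.90 and 2.74 in the same order, and by 2.60 without light, so its difference was present in unlit embryos.

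Among 13 genes of membrane supply to the furrow 1 fell and 1 rose at NC10-14, 3 and 3 at NC10-12 and 1 rose at NC13-14. The list medians were 0.32, 0.12, -0.07 and 0.18 in NC10-14, NC10-12, NC13-14 and NC14. Of all genes, 7.58% fell and 7.82% rose at NC10-14, and 16.5% and 16.9% at NC10-12. The shares were 8.94% and 8.32% at NC13-14 and 9.65% and 7.79% at NC14. The exocyst regulator Rala rose by 2.76 ± 0.35 at NC10-14 and by 1.25 ± 0.25 without light, and it was not called in the other 3 windows (0.27 to 0.50). The recycling endosome gene Rab11 changed by -0.36 ± 0.12 at NC10-14 (adjusted p = 0.0485). Of 14 polarity and adhesion genes 2 fell at NC10-14, 2 fell and 3 rose at NC10-12, 3 and 2 at NC13-14 and 1 and 2 at NC14. The list medians were -0.17, 0.14, -0.03 and 0.14 in the same order. The apical polarity gene sdt changed by -3.16, -1.85, -5.79 and -3.57 in NC10-14, NC10-12, NC13-14 and NC14 and rose by 1.32 in unlit embryos. The E-cadherin gene shg changed by -0.98 at NC10-14 and by -0.92 at NC13-14.

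A pair of lists holds genes close to the roles of halo and kuk, and their part in the halo and kuk values was not tested. Of 7 lipid droplet transport genes 1 rose at NC10-14, the droplet coat gene Lsd-2 (2.05 ± 0.60, adjusted p = 0.0175), and 3 rose at NC10-12, among them klar, a motor regulator (1.81 ± 0.34, adjusted p = 0.000166). Of all genes, 7.82% rose at NC10-14 and 16.9% at NC10-12. The list medians were 0.86, 0.45, 0.37 and 0.19 in NC10-14, NC10-12, NC13-14 and NC14. In wild type NC10-14 against NC13-14 4 of the 7 were called higher too (list median 1.49), where 10.5% of all genes were. Lit in NC10-14 against unlit, 5 were higher (list median 1.95), where 20.3% of all genes were. Their summed level ran from 276 to 1103 CPM among CRY2-ZLD NC10-12 embryos. Of 8 nuclear lamina and envelope genes 3 fell at NC10-14, 4 fell and 2 rose at NC10-12, 3 fell at NC13-14 and 2 fell and 1 rose at NC14. The list medians were -0.08, -0.41, -0.59 and 0.09 in the same order. Of all genes, 7.58% fell at NC10-14, 16.5% fell and 16.9% rose at NC10-12 and 8.94% fell at NC13-14. At NC14 9.65% fell and 7.79% rose. The nuclear anchor gene Msp300 changed by -3.29, -3.78, -3.55 and -3.31 in NC10-14, NC10-12, NC13-14 and NC14, and differed by -0.29 without light. Its partner koi, a SUN domain protein, changed by -0.86, -0.76, -1.0 and -0.62 in the same order. Unlike slam, bnk and dunk, both were therefore called lower at NC10-12.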

How the data were processed

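Polyadenylated RNA of 34 single embryos in 9 groups was measured. The authors deposited whole-number read counts per gene for each library beside an exon length, without normalization. The counts were made with featureCounts without regard to strand on FlyBase r6.20, per the file headers, and the submitters' processing notes name Trimmomatic 0.36, HISAT2 2.1.0, featureCounts 1.5.3, DESeq2 1.14.1 and dm6. Replicates are separate embryos, per the labels, and no replicate pair agreed within sampling noise (lowest chi-square per degree of freedom 35.6).

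Of 17491 genes, 2887 had no read and 9519 passed edgeR's filter on low counts (minimum count 10). The main result was edgeR's quasi-likelihood test (edgeR 4.0.16, R 4.3.3) in 1 fit of 9 groups with TMM scaling, with Benjamini-Hochberg adjustment over all tested genes and a threshold of 0.05. Levels are CPM on TMM library sizes, or RPKM by the deposited exon length. Alternatives used DESeq2 1.42.0, limma 3.58.1 with voom, DESeq2 size factors, scaling on 92 ribosomal protein genes, no filter, the compared libraries alone, a replicate block, a term for and fits within the parts of the first library set, libraries left out and, chosen after seeing the data, each wild type alone as the reference for unlit embryos. The scripts were checked on simulated data.

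The 6 furrow genes and the lists were chosen with earlier results of these data known. The furrow genes are named in every comparison, with the 2 genes of highest Pearson r to each and, from each role list, the 2 genes of smallest p at NC10-14. The gene klar was named after its values were seen. The gene zip was not matched by identifier, nos was matched as nanos, and frs, a synonym of Z600, was counted once.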

Additional observations from a re-analysis of the deposited data

Results flagged for a closer look

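In 3 of the 42 groups of 4 embryos examined, 1 embryo lay far from the others, and chance flags about 1 in 20 groups. CRY2-ZLD NC14 replicate 3 held 16.6 CPM of bnk against 5.06 to 6.46 CPM in the other 3 embryos. CRY2-ZLD NC13-14 replicate 2 held 398 CPM of halo against 221 to 243 CPM, and CRY2-ZLD NC13-14 replicate 4 held 46.1 CPM of dunk against 27.2 to 28.3 CPM.

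Each of the 6 furrow genes was tested for a change of the genotype difference in each pair of windows named here, and 12 such tests were called. Between NC14 and NC13-14 none of the 6 was called, where 0.116% and 0.0525% of all genes were called lower and higher. From NC13-14 to NC10-14 the difference changed by -4.85 for nullo and -2.85 for halo, where 0.462% of all genes were called lower and 0.536% higher. The shares were 4.84% and 3.92% from NC10-12 to NC10-14. For NC10-12 minus NC14 they were 1.87% and 2.98%. From NC10-12 to NC10-14 the difference changed by -3.56 for slam, -8.31 for nullo, -7.28 for bnk, -1.03 for kuk, -3.78 for halo and -6.27 for dunk. The difference at NC10-12 exceeded that at NC14 by 1.96 for slam, 5.18 for nullo, 5.20 for bnk and 4.29 for dunk. Some of these calls were lost with a single embryo left out. They were those of nullo and halo from NC13-14, of kuk from NC10-12 to NC10-14 and of slam between NC10-12 and NC14.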

How the results depend on the processing

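Of 84 results for the furrow genes, 84 kept their direction and call when the 2 parts of the NC10-14, NC13-14 and unlit libraries entered as a covariate, 83 with DESeq2 size factors, 81 with no filter and 81 with DESeq2, 80 with limma-voom, 79 without the 5 libraries, 77 with only the compared libraries and 73 with ribosomal protein scaling. Within the first part alone 33 of 42 results kept both, and within the second part 29 of 42, where 10 lost their call and 2 turned sign. With each replicate left out in turn 787 of 834 kept both. Same-numbered replicates of the 2 genotypes had r of -0.178 to 0.359 over 15 pairs, with group means subtracted. That r exceeded the best with another number for some pairs, such as NC10-12 replicate 3 (0.343 against -0.083). It did not for others, such as NC14 replicate 4 (-0.178 against 0.125). No reference for r without pairing was computed, so these values cannot settle whether the numbers pair the samples. With the replicate block 77 results kept their call and direction, nullo at NC14 was 0.10, and the furrow genes called higher between the wild types went from 2 to 1 and those lower from NC13-14 to NC10-14 from 2 to 0. Signs turned for nullo (0.31) and kuk (0.23) at NC14 with ribosomal protein scaling, for nullo at NC14 (0.18) and slam between the wild types (-0.050) with limma-voom, for slam lit in NC10-12 against unlit with no filter (-0.037) and without the 5 libraries (-0.24), and for kuk within the second part, unlit (-0.064) and between the wild types (0.088). With 1 embryo left out, values that changed sign ranged from -0.19 to 0.20 for slam lit in NC10-12 against unlit, -0.94 to 0.69 for nullo at NC14, -0.25 to 0.38 for slam between the wild types and -0.47 to 1.25 for bnk from NC14 to NC13-14. None of these was called, and the cause was not tested. The genes called lower at NC10-12, 1 in number, became 0 with ribosomal protein scaling or without the 5 libraries and 2 with no filter, DESeq2, limma-voom or only the compared libraries, and 0 to 2 with 1 embryo left out. Those higher between the wild types, 2, became 1 with DESeq2 size factors, no filter or the first part, 0 in the second part, and 1 to 2 with 1 embryo left out. Those higher when lit in NC10-12 went from 1 to 3 with only the compared libraries. Those lower from NC13-14 to NC10-14 became 1 with ribosomal protein scaling and in either part, and 0 to 2 with 1 embryo left out. Within the first and second part, those lower when lit in NC13-14 went from 5 to 3 and 2 and those higher from 1 to 0 in both (0 to 1 with 1 embryo left out). Among all genes the lower calls there went from 610 to 188 and 379 and the higher calls from 635 to 69 and 383. Furrow genes higher when lit in NC10-14 became 0 in the second part. Furrow genes lower unlit went from 3 to 0 in the first, where the lower calls among all genes went from 1430 to 325. With wild type NC13-14 alone as the reference for unlit embryos, an alternative chosen after seeing the data, the furrow genes lower unlit also went from 3 to 0. With wild type NC10-14 alone they were 3. Of all genes, 424 and 1869 were called lower in these 2 cases. Ribosomal protein scaling moved the CPM of slam (493) and kuk (1731) in CRY2-ZLD NC10-14 and of kuk in wild type NC10-12 (4732) and NC14 (3514), and the all-gene median change from 0.06 to 0.32 at NC10-14, -0.01 to 0.19 at NC10-12, 0.07 to 0.28 at NC13-14 and -0.03 to 0.42 at NC14. The lower share of calls then went from 49.2% to 36.4%, 49.3% to 33.7%, 51.8% to 37.9% and 55.3% to 24%. Over all alternatives the genes called lower and higher ranged from 376 to 816 and 263 to 1116 at NC10-14 (722 and 744 as reported), 890 to 1789 and 875 to 1807 at NC10-12 (1567 and 1613), 424 to 1326 and 233 to 1440 at NC13-14 (851 and 792) and 410 to 1018 and 296 to 1466 at NC14 (919 and 742). Lit against unlit they ranged from 819 to 1823 and 817 to 2117 at NC10-14 (1623 and 1937), 634 to 1627 and 358 to 1580 at NC10-12 (1369 and 1309), 188 to 1189 and 69 to 890 at NC13-14 (610 and 635) and 168 to 323 and 48 to 217 at NC14 (245 and 107), unlit against wild type 325 to 1869 and 340 to 2135 (1430 and 1582) and between the wild types 0 to 1146 and 2 to 1365 (761 and 1003). For the change between windows they were 16 to 75 and 9 to 174 (44 and 51) for NC10-14 minus NC13-14, 188 to 628 and 124 to 659 (461 and 373) for NC10-14 minus NC10-12, 21 to 402 and 53 to 555 (178 and 284) for NC10-12 minus NC14 and 0 to 38 and 0 to 25 (11 and 5) for NC13-14 minus NC14. With ribosomal protein scaling the lower share went from 45.6% to 31.7% lit against unlit at NC10-14, from 43.1% to 28.1% between the wild types and from 46.3% to 56.8% for NC10-14 minus NC13-14, where it was 35.1% with DESeq2 size factors, 36.3% with no filter and 30.1% with DESeq2.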
